A study of Mus musculus with 21 samples.

Results

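The p53 and CDK inhibitor genes are 9 genes that sense damage or halt the cell cycle: Trp53, Mdm2, Cdkn1a, Ccng1, Sesn2, Gdf15, Cdkn2a, Cdkn2b and Cdkn2c. They were taken by symbol (listed in upper case, as TRP53, MDM2, CDKN1A, CCNG1, SESN2, GDF15, CDKN2A, CDKN2B and CDKN2C), and all 9 were found among the 24447 genes shared by the 3 count tables of cultured murine fibroblasts. RNA of 21 cultures in 7 groups of 3 was sequenced, and the study asked what the transcription factor Prrx1 controls in fibroblasts. Mouse embryonic fibroblasts (MEF) came from embryos of embryonic day 10 to 13 and were WT, Prrx1 mutant (labelled KI, from 129S-Prrx1tm1Jfm/Mmmh mice) or sgPrrx1, that is, edited with a CRISPR/Cas9 guide against Prrx1. Wound-healing fibroblasts, from dorsal skin 10 days after wounding, and MMTV-CAF, cancer-associated fibroblasts of MMTV-PyMT mammary tumours, were each WT or sgPrrx1.

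The WT controls of edited cells carried the non-targeting construct sgNS. The same WT MEF cultures were also the control for mutant MEF, which are not described as carrying a construct. If they carried none, genotype and construct cannot be told apart in that comparison. The strain label was C57BL/6 for all MEF and wound-healing fibroblasts and FVB/NJ for MMTV-CAF, so cell type and strain cannot be told apart for MMTV-CAF. Mutant MEF came from other embryos than WT MEF. Their stock bears a 129S name and is described in the study's methods as backcrossed to C57BL6, so the Prrx1 genotype and any difference in background that remained cannot be told apart either. Every culture, controls included, had been immortalised with human papillomavirus E6/E7 (the label stops after "E6/E"). The labels do not say whether the 3 cultures of a group were separate derivations or whether edited lines were single clones, so the p-values measure only the spread between these samples, which may be technical.

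The p53 protein is a transcription factor that is stabilised by DNA damage and other stress. It switches on arrest genes such as Cdkn1a and also Mdm2, whose product marks p53 for destruction. The products of the Ink4 genes Cdkn2a, Cdkn2b and Cdkn2c hold back CDK4 and CDK6, which otherwise inactivate the Rb protein, and Cdkn2a also encodes Arf, an inhibitor of Mdm2. Papillomavirus E6 directs p53 to degradation and E7 binds Rb. RNA levels carry no measure of p53 protein, so p53 activity was not measured in these cultures.

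Totals of 69588655 to 134790440 counts per culture were behind the levels, which are given as CPM, the count relative to the scaled library total, on a scale common to the 21 cultures. Prrx1 RNA was lower in every Prrx1-loss group than in its WT: 22.2 ± 3.41 CPM in mutant MEF and 120.3 ± 23.2 in sgPrrx1 MEF against 181 ± 13.1 in WT MEF, 64.9 ± 0.578 against 147 ± 4.68 in wound-healing fibroblasts, and 306 ± 4.39 against 632 ± 4.63 in MMTV-CAF (mean ± SD, n = 3). Editing need not lower the RNA, so this does not measure the protein. Of 9 fibroblast markers all but Lum were detected in every culture, and Lum was at 0 in 8 of them. The summed level of these markers was lower with Prrx1 loss in each cell type: 5595 to 6849 CPM in mutant and 9589 to 11274 in sgPrrx1 MEF against 12205 to 12475 in WT, 3239 to 3255 CPM in sgPrrx1 against 8231 to 8379 in WT wound-healing fibroblasts and 15763 to 15965 against 31717 to 32315 in MMTV-CAF. The collagens carried much of this sum, and some members were higher: Pdgfra in sgPrrx1 MMTV-CAF (1835 against 939 CPM), Dcn in the same cells (588 against 32.4) and Vim in sgPrrx1 MEF (6504 against 5075). Summed leukocyte markers were 26.4 to 27.4 CPM in sgPrrx1 MMTV-CAF against 8.19 to 8.73 in WT, most of it Cd14 (26.1 against 6.69), while Ptprc was at most 0.162 CPM in any culture and Adgre1 was at 0 in all 21. Elsewhere the leukocyte sum was 13.8 to 22.2 CPM. Summed epithelial markers reached 13.6 CPM and summed endothelial markers 293 CPM. The endothelial sum came from Kdr in wound-healing fibroblasts, at 290.3 CPM in WT and 142 in sgPrrx1, with Pecam1 at 0. The part of these markers in the results below was not tested, and in bulk cultures fewer cells with a transcript and less of it per cell cannot be told apart.

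Changes with Prrx1 loss are log2 fold changes against WT of the same cell type, and a gene was called when its edgeR quasi-likelihood p, adjusted by Benjamini-Hochberg over all genes tested, was under 0.05. In sgPrrx1 MMTV-CAF 8 of the 9 genes were called, 3 higher (Cdkn2a, Cdkn2b and Cdkn2c) and 5 lower (Trp53, Mdm2, Cdkn1a, Ccng1 and Sesn2), where 83.1% of all genes tested were called. In sgPrrx1 wound-healing fibroblasts 7 were called against 77.6% of all genes, 5 higher (Trp53, Mdm2, Cdkn1a, Sesn2 and Cdkn2a) and 2 lower (Cdkn2b and Cdkn2c). In mutant MEF 4 were called against 59.9% of all genes, Ccng1 higher and Cdkn2a, Cdkn2b and Sesn2 lower. In sgPrrx1 MEF 3 were called against 43.1% of all genes, Trp53 higher and Cdkn2b and Sesn2 lower. WT and Prrx1-loss cultures did not overlap for 8 of the 9 genes in MMTV-CAF (84.8% of all genes), 7 in wound-healing fibroblasts (80.1%), 5 in mutant MEF (68.1%) and 4 in sgPrrx1 MEF (56.4%). These numbers were not far from the background, so they say nothing particular about the 9 genes, and the account turns on direction and size.

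**Figure D1:**
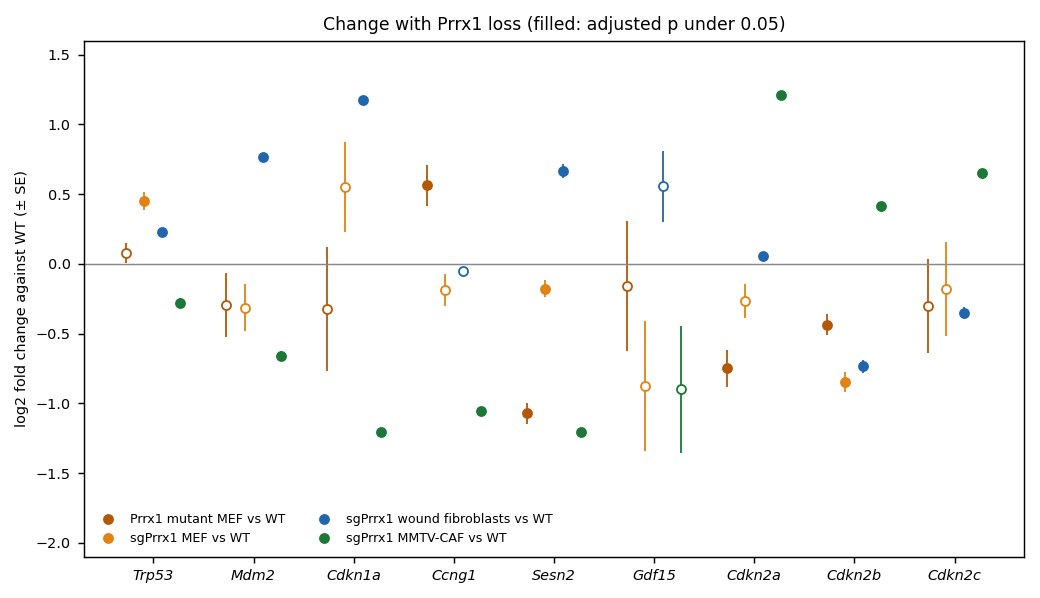
The log2 fold change of each of the 9 genes against WT of the same cell type, with its standard error, in 4 comparisons of 3 cultures with 3. Filled points passed the test, and wound-healing fibroblasts (Cdkn1a 1.18) and MMTV-CAF (Cdkn1a -1.2) lie on opposite sides of 0 for Trp53, Mdm2, Cdkn1a, Sesn2, Cdkn2b and Cdkn2c. They do so for Gdf15 as well (0.56 and -0.90), which passed in neither.

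The RefSeq sequences around the transcription starts (GRCm38.p6, 250 bases before to 50 bases after each start) show where the 9 genes carry letters of known motifs. All 9 genes had a window, 13 windows in all. The p53 half-site consensus, which reads alike on both strands, was sought as an exact match only. It stood in 4 of these windows and in 8.36% of all 32851. The Cdkn1a, Mdm2 and Ccng1 windows are shown because these targets fell together in sgPrrx1 MMTV-CAF, and capitals mark the half-sites.

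Cdkn1a, chr17:29090729-29091028, plus strand: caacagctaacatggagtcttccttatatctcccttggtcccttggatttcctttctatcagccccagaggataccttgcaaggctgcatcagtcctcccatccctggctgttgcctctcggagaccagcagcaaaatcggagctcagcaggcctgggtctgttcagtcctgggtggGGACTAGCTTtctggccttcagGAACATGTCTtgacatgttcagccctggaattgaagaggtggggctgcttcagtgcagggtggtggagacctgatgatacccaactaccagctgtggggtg

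Mdm2, chr10:117710709-117711008, minus strand: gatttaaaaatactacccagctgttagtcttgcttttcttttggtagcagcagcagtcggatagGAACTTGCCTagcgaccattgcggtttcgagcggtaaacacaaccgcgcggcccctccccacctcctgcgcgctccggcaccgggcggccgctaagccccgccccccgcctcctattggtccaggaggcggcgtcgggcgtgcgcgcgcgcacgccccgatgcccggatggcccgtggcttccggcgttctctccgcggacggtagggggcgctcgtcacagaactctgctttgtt

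Ccng1, chr11:40755237-40755536, minus strand: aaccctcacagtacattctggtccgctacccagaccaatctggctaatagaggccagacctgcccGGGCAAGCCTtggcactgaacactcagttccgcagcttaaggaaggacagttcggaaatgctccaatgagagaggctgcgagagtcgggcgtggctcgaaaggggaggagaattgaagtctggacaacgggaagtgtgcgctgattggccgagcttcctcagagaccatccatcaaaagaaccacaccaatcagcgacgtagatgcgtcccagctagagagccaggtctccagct

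The upstream start of Cdkn1a held 2 exact half-sites, beginning 73 and 51 bases before it and separated by 12 bases. A pair of exact half-sites with a spacer of at most 13 bases occurred in 0.0731% of all windows. That search leaves out pairs with a mismatch. Directly after the half-site at 51 bases, the letters tgacatgttc differ from the consensus by a single letter and were not counted. The second Cdkn1a start, 2790 bases downstream, held no exact half-site. In Mdm2 and Ccng1 the only exact half-site began 186 and 185 bases before the start, and in Trp53 it began 75 bases before. Directly ahead of the Ccng1 half-site, the letters agacctgccc differ from the consensus by a single letter and were likewise not counted. No exact half-site was found in the windows of Sesn2, Gdf15, Cdkn2a, Cdkn2b or Cdkn2c, which says only that these letters are not in these windows. Sequence outside the windows was not searched for any gene.

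Cdkn2a has 2 starts 12427 bases apart, the upstream one for Arf and the downstream one for p16Ink4a, and the deposited counts join them. Its upstream window is shown because E2F factors are classic regulators of Arf, and capitals mark the E2F letters TTTCCCGC.

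Cdkn2a, upstream start, chr4:89294570-89294869, minus strand: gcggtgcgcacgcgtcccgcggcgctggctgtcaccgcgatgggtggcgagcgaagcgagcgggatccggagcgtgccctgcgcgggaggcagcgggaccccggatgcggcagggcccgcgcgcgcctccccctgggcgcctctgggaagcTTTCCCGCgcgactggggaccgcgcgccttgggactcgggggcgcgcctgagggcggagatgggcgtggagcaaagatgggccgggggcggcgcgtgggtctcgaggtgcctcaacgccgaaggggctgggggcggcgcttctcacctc

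This match began 99 bases before the start. It was sought as TTTGGCGC or TTTCCCGC on both strands, neither of which overlaps the half-site letters here, and either stood in 1.56% of all windows but in no other window of the 9 genes. The ATF4 element TGATGNAA, on both strands, stood in 3.97% of all windows and in none of theirs, Sesn2 included. A match is a description of letters and not a bound site.

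The genes lie apart in the genome except for Cdkn2a (chr4:89274473-89294619) and Cdkn2b (chr4:89306289-89311032), whose ends are 11669 bases apart. Cdkn2b overlaps the predicted gene Gm12610. The library kit does not mark strand, so reads of the 2 cannot be told apart, but Gm12610 held 26 to 221 counts per culture and Cdkn2b at least 1547. Per kilobase of Gencode exon, Cdkn2a stood highest of the 9 genes in all 3 MEF groups and in both groups of MMTV-CAF, at 333 ± 12.5 CPM per kb in WT MEF. In WT MMTV-CAF, Cdkn2a at 80.9 ± 2.19, Ccng1 at 80.8 ± 0.347 and Cdkn1a at 79.5 ± 1.89 CPM per kb did not differ beyond their spread. Ccng1 stood highest in WT wound-healing fibroblasts at 229 ± 4.28 CPM per kb, and Cdkn1a in sgPrrx1 wound-healing fibroblasts at 246 ± 4.70. Gdf15 was lowest in every group, from 0.423 to 9.91 CPM per kb.

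Trp53 encodes p53 itself. Its level was 170.4, 164 and 155 CPM in WT MEF, 171, 177 and 177 in mutant MEF and 229, 222 and 224 in sgPrrx1 MEF. Every sgPrrx1 MEF culture stood above every other culture of the series, and the MEF groups did not overlap. In sgPrrx1 MEF Trp53 rose 1.37-fold (log2 0.45 ± 0.06 SE, edgeR adjusted p = 0.00169), whereas the mutant MEF were not called (log2 0.08 ± 0.07, adjusted p = 0.393). Wound-healing fibroblasts had 129.6, 128 and 135 CPM in WT and 158, 154 and 149.8 in sgPrrx1, an increase of log2 0.23 ± 0.03 (edgeR adjusted p = 4.12e-05). MMTV-CAF went the other way, from 124, 134 and 132 CPM in WT to 106, 109.5 and 110.5 in sgPrrx1, and Trp53 fell by 0.28 ± 0.03 on the log2 scale (edgeR adjusted p = 7.66e-05). The 3 edited lines thus ordered as MEF, wound-healing fibroblasts and MMTV-CAF, and each difference between their changes passed the interaction test (adjusted p = 0.00214, 6.04e-08 and 6.74e-06).

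Mdm2 encodes the ubiquitin ligase that removes p53 and is itself a p53 target. In wound-healing fibroblasts it read 243, 249.96 and 249 CPM in WT and 423, 422 and 421 in sgPrrx1. These groups lay far apart beside a spread of a few CPM, and Mdm2 rose 1.7-fold (log2 0.77 ± 0.02, edgeR adjusted p = 2.82e-09). In MMTV-CAF it read 89.7, 84.8 and 93.8 CPM in WT and 57.3, 56.0 and 58.7 in sgPrrx1, and fell 1.58-fold (log2 -0.66 ± 0.04, edgeR adjusted p = 9.37e-07). MEF cultures were spread widely, at 166, 137 and 100.3 CPM in WT, 140.0, 93.3 and 99.7 in mutant and 112, 102 and 113 in sgPrrx1. Neither MEF comparison was called (log2 -0.30 ± 0.23, adjusted p = 0.294, and -0.31 ± 0.17, adjusted p = 0.176). Without WT MEF culture 3, the lowest of its group, sgPrrx1 MEF gave log2 -0.49 at an adjusted p of 0.0104.

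Cdkn1a encodes p21, the CDK inhibitor through which p53 halts the cycle. Its highest level was in sgPrrx1 wound-healing fibroblasts, at 551, 534 and 553 CPM against 244, 236 and 244 in WT, a 2.26-fold rise (log2 1.18 ± 0.02, edgeR adjusted p = 7.52e-10). In MMTV-CAF the levels were 172, 180.0 and 178 CPM in WT and 77.2, 77.9 and 78.3 in sgPrrx1, a 2.30-fold fall (log2 -1.2 ± 0.02, edgeR adjusted p = 1.64e-09). Within both cell types the groups were far apart, and the 2 changes differed, MMTV-CAF minus wound-healing fibroblasts, by -2.33 ± 0.31 on the log2 scale (interaction, edgeR adjusted p = 6.25e-06). The highest of the 7 group means was 7.02 times the lowest.

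In MEF, single cultures set the outcome for Cdkn1a. WT MEF held 89.4, 91.3 and 210.2 CPM, mutant MEF 128, 133 and 53.8, and sgPrrx1 MEF 206, 192 and 178. WT culture 3 stood far above the other WT cultures and above all sgPrrx1 cultures, and mutant culture 3 far below the other mutant cultures. Neither comparison with WT was called (log2 -0.33 ± 0.45, adjusted p = 0.55, and 0.55 ± 0.32, adjusted p = 0.205). Without WT culture 3, Cdkn1a in sgPrrx1 MEF gave log2 1.08 at an adjusted p of 0.000376, and in mutant MEF the sign turned to log2 0.19, still not called. Without the other cultures in turn sgPrrx1 MEF gave no call. The wound-healing and MMTV-CAF calls held whichever culture was left out, with log2 1.16 to 1.19 and -1.22 to -1.19.

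**Figure D2:**
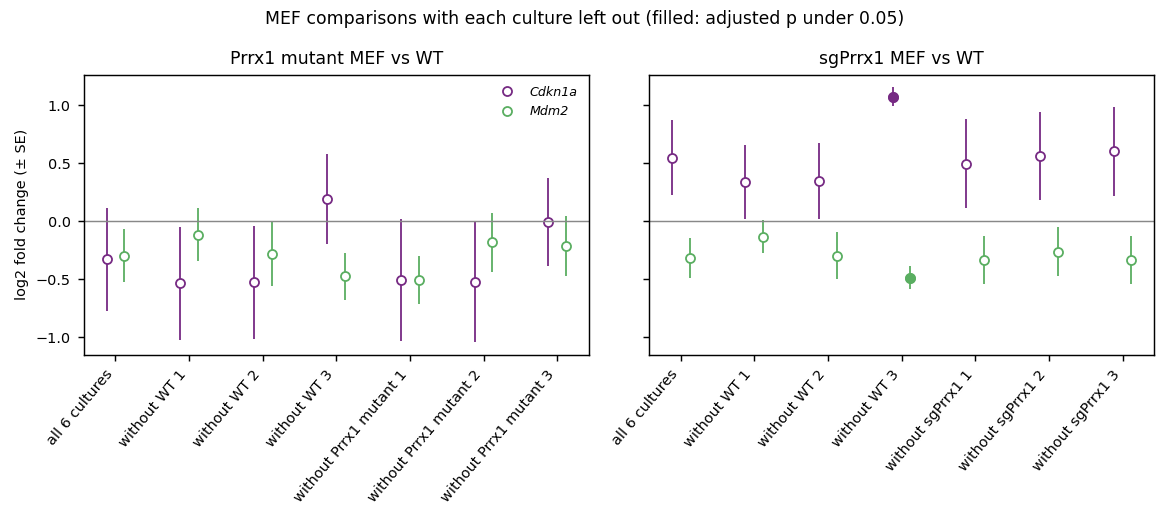
Log2 fold change of Cdkn1a and Mdm2 against WT MEF, with standard error, with all 6 cultures and with each left out; filled points passed the test. Leaving out WT culture 3 moves Cdkn1a to 1.08 in sgPrrx1 MEF and to 0.19 in mutant MEF.

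Ccng1 encodes cyclin G1, a p53 target that takes part in the Mdm2 loop. It was abundant in wound-healing fibroblasts, at 794, 799 and 823 CPM in WT and 779, 801 and 759 in sgPrrx1, and these ranges overlapped. The change was narrowly missed (log2 -0.05 ± 0.02, edgeR adjusted p = 0.0554). Over the alternative settings the adjusted p ranged from 0.00828 to 0.0974, with 0.033 for DESeq2. With 1 culture left out, 4 of the 6 edgeR fits gave no call, and the lowest adjusted p was 0.0146. The MMTV-CAF held 283, 283 and 285 CPM in WT and 139.7, 138 and 138 in sgPrrx1, a 2.07-fold fall (log2 -1.05 ± 0.02, edgeR adjusted p = 6.57e-10). Among MEF the levels were 199, 213 and 233 CPM in WT, 389, 306 and 271 in mutant and 165, 187 and 219 in sgPrrx1. Mutant MEF stood above WT in all 3 cultures, 1.48-fold (log2 0.56 ± 0.15, edgeR adjusted p = 0.015), but the call was lost without WT culture 1 (adjusted p = 0.0543). The 2 MEF models differed: sgPrrx1 MEF were lower than mutant MEF (log2 -0.75 ± 0.16, edgeR adjusted p = 0.00774). In wound-healing fibroblasts Cdkn1a and Mdm2 thus rose with a Ccng1 fold of 0.965, and in MMTV-CAF the 3 genes fell together.

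Sesn2 encodes sestrin 2, which restrains mTORC1 and is induced by both p53 and the stress factor ATF4. Its MEF cultures lay close together within each group, at 61.9, 60.1 and 58.4 CPM in WT, 29.5, 27.9 and 29.8 in mutant and 53.6, 53.1 and 54.4 in sgPrrx1. Mutant MEF fell 2.10-fold (log2 -1.07 ± 0.08, edgeR adjusted p = 3.89e-05). In sgPrrx1 MEF the fall was 1.13-fold at an adjusted p of 0.0471, and the call was lost without any of 5 of the 6 cultures in turn (adjusted p = 0.0864 to 0.191), the exception being WT culture 3. MMTV-CAF read 69.5, 69.9 and 68.6 CPM in WT and 30.8, 31.1 and 29.5 in sgPrrx1, a 2.31-fold fall (log2 -1.21 ± 0.03, edgeR adjusted p = 3.82e-09). Wound-healing fibroblasts ran opposite, from 30.8, 27.4 and 29.2 CPM in WT to 45.2, 45.4 and 48.8 in sgPrrx1, a 1.59-fold rise (log2 0.67 ± 0.05, edgeR adjusted p = 2.36e-06). The change in MMTV-CAF differed from that in wound-healing fibroblasts by -1.82 ± 0.06 on the log2 scale (edgeR adjusted p = 7e-13).

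Gdf15 encodes a secreted stress cytokine of the TGF-beta superfamily. It was scarce and uneven: 4.41, 1.04 and 3.66 CPM in WT MEF, 2.39, 2.95 and 2.96 in mutant MEF and 1.82, 1.54 and 1.65 in sgPrrx1 MEF. Wound-healing fibroblasts held 0.558, 0.729 and 1.07 CPM in WT and 1.29, 1.2 and 0.972 in sgPrrx1. MMTV-CAF held 7.70, 24.3 and 23.1 CPM in WT and 12.3, 5.45 and 12.3 in sgPrrx1. None of the 4 comparisons with WT was called (adjusted p = 0.783, 0.168, 0.0742 and 0.1 for mutant MEF, sgPrrx1 MEF, wound-healing fibroblasts and MMTV-CAF), and the groups overlapped in each. Wound-healing fibroblasts were called by DESeq2 (log2 0.56, adjusted p = 0.0492, where the alternative settings ranged to 0.123). One culture decided each miss: without WT MEF culture 2 sgPrrx1 MEF gave log2 -1.28 (adjusted p = 0.00374) and mutant MEF -0.57 (0.0439), without WT wound culture 3 the change was 0.84 (0.0134), and without WT MMTV-CAF culture 1 it was -1.26 (0.00911).

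Cdkn2a, the source of p16Ink4a and Arf, was most abundant in WT MEF at 406, 382 and 379.6 CPM. Mutant MEF had 188, 245 and 275 CPM, below every WT culture, and sgPrrx1 MEF had 369.9, 347 and 264, also below but close. The fall in mutant MEF was 1.68-fold (log2 -0.75 ± 0.13, edgeR adjusted p = 0.0027), and sgPrrx1 MEF was not called (log2 -0.26 ± 0.12, adjusted p = 0.123). In wound-healing fibroblasts the levels were 169.6, 168 and 163 CPM in WT and 175, 172 and 176 in sgPrrx1, a 1.04-fold difference that passed the test narrowly (adjusted p = 0.0364). That call was lost with upper-quartile scaling (adjusted p = 0.193, in a range from 0.0138 over the alternative settings), without a filter (0.0796), and without either of sgPrrx1 cultures 1 and 3 or WT culture 3 (0.0997 to 0.125). MMTV-CAF were clear: 97.6, 93.1 and 93.3 CPM in WT and 220.0, 221 and 224 in sgPrrx1, a 2.31-fold rise (log2 1.21 ± 0.02, edgeR adjusted p = 1.81e-09). In these cells Cdkn2a rose and Cdkn1a fell by nearly the same fold, 2.31 and 2.30.

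Cdkn2b encodes p15Ink4b, a CDK4 and CDK6 inhibitor induced by TGF-beta. It was lower in 3 of the 4 Prrx1-loss groups. MEF fell from 39.9, 43.6 and 43.0 CPM in WT to 30.6, 31.5 and 32.9 in mutant (log2 -0.44 ± 0.08, edgeR adjusted p = 0.00266) and to 22.9, 23.3 and 24.7 in sgPrrx1 (log2 -0.85 ± 0.07, adjusted p = 0.000215). Wound-healing fibroblasts fell from 46.3, 46.8 and 43.2 CPM to 25.9, 27.7 and 28.7, which was 1.66-fold (log2 -0.73 ± 0.05, edgeR adjusted p = 1.05e-06). MMTV-CAF rose from 58.3, 57.8 and 56.4 CPM to 79.6, 77.3 and 75.6 (log2 0.41 ± 0.03, edgeR adjusted p = 3.03e-06). No culture decided any of these 4 calls, and in none of them did WT and Prrx1-loss cultures overlap. The change in MMTV-CAF differed from that in MEF by 1.28 ± 0.07 and from that in wound-healing fibroblasts by 1.2 ± 0.07 on the log2 scale (adjusted p = 1.46e-10 and 1.99e-10), and MEF and wound-healing fibroblasts were not shown to differ (adjusted p = 0.317).

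Cdkn2c encodes p18Ink4c. In MMTV-CAF it rose from 47.0, 50.3 and 48.5 CPM to 76.5, 77.6 and 78.1 (log2 0.65 ± 0.03, edgeR adjusted p = 2.11e-07). In wound-healing fibroblasts it fell from 57.2, 57.8 and 60.4 CPM to 43.7, 46.4 and 47.9 (log2 -0.35 ± 0.04, edgeR adjusted p = 4.11e-05). MEF were too spread for a call, at 63.3, 64.5 and 32.5 CPM in WT, 48.7, 55.5 and 27.9 in mutant and 31.7, 67.0 and 44.0 in sgPrrx1. WT and mutant MEF culture 3, which were also extreme for Cdkn1a, were the lowest of their groups here. In all, the 3 Ink4 genes rose together in MMTV-CAF, where the p53 targets Cdkn1a, Ccng1 and Mdm2 fell together.

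**Figure D3:**
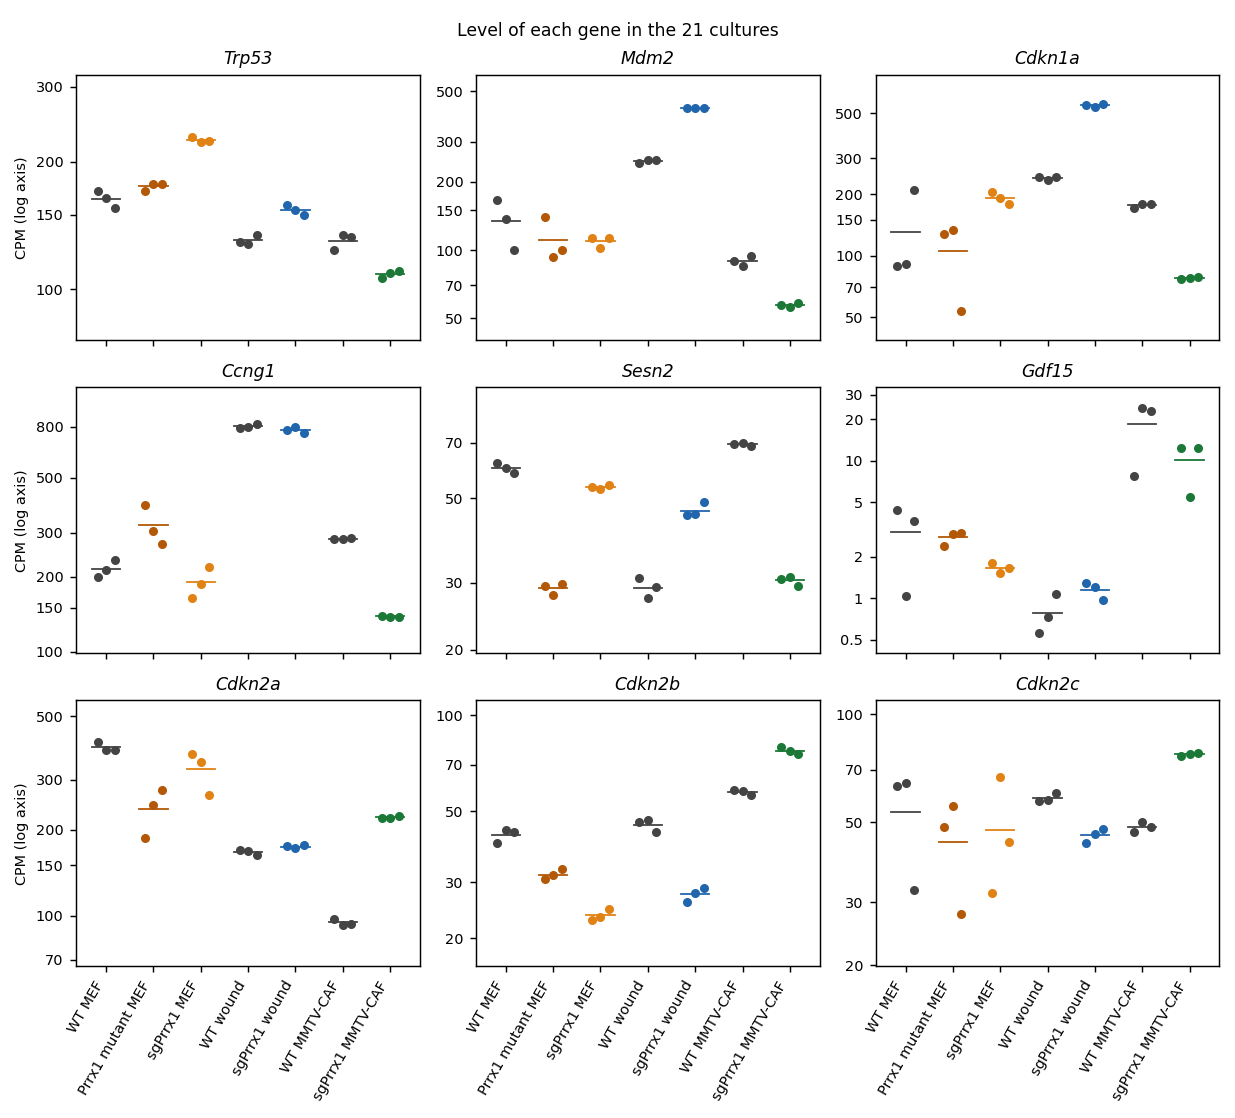
CPM of each gene (log axis) in the 21 cultures, as 3 points per group in order of culture number, with a line at the group mean. WT groups are grey. For Cdkn1a the wound-healing and MMTV-CAF points lie close together and the MEF points spread (89.4 to 210.2 CPM in WT), and for Gdf15 the MMTV-CAF points spread as well (7.70 to 24.3 CPM in WT).

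The order of the 7 groups differed from gene to gene. For Trp53 it ran sgPrrx1 MEF, mutant MEF, WT MEF, sgPrrx1 and WT wound-healing fibroblasts, WT and sgPrrx1 MMTV-CAF, and WT MEF overlapped sgPrrx1 wound-healing fibroblasts as WT wound-healing fibroblasts did WT MMTV-CAF. Mdm2, Cdkn1a and Ccng1 shared the extremes: by group means wound-healing fibroblasts were the highest 2 groups and sgPrrx1 MMTV-CAF the lowest. For Cdkn1a, however, mutant MEF overlapped sgPrrx1 MMTV-CAF and held the lowest single culture (53.8 CPM), and for Ccng1 the wound-healing groups overlapped each other. Sesn2 ran from WT MMTV-CAF at the top to mutant MEF at the foot, with the lowest 3 groups overlapping. Cdkn2b ran from sgPrrx1 MMTV-CAF at 77.5 CPM to sgPrrx1 MEF at 23.6, with only WT wound-healing fibroblasts and WT MEF overlapping as neighbours. For Cdkn2c, 5 of the 6 neighbouring pairs overlapped.

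Among WT cultures the cell types already differed. Against WT MEF, 8 of the 9 genes were called in WT wound-healing fibroblasts, 4 higher and 4 lower (80.3% of all genes, 40.9% higher and 39.4% lower), and 7 in WT MMTV-CAF, 4 higher and 3 lower (79.2%, with 40.6% higher and 38.6% lower). Ccng1 was 3.83-fold higher in WT wound-healing fibroblasts (log2 1.94 ± 0.05, edgeR adjusted p = 3.2e-09), and Mdm2 1.88-fold higher (log2 0.91 ± 0.15, adjusted p = 0.000404). Cdkn2a was 2.28-fold lower there and 4.25-fold lower in WT MMTV-CAF (log2 -1.19 ± 0.04 and -2.09 ± 0.04, edgeR adjusted p = 1.34e-08 and 6.19e-10). Against wound-healing fibroblasts 6 of the 9 were called in WT MMTV-CAF, 3 higher and 3 lower (80.4% of all genes, 39.4% higher and 41.1% lower), with Mdm2 and Ccng1 2.92-fold and 2.99-fold lower. Gdf15 was 22.2-fold higher (log2 4.47 ± 0.63, edgeR adjusted p = 0.000132). Of the genes not called there, Cdkn1a and Cdkn2c did not overlap between the 2 groups (edgeR adjusted p = 0.116 and 0.169). These tests took their spread from all 3 WT groups, MEF included. For each gene 8 of the 9 fits that left out 1 culture gave no call, and the remaining fit gave 4.71e-07 for Cdkn1a and 2.49e-05 for Cdkn2c. Cdkn1a was not called in WT MMTV-CAF against WT MEF (log2 0.40 ± 0.28, adjusted p = 0.224) and was without WT MEF culture 3 (log2 0.95, adjusted p = 3.01e-08). Against WT MEF, the calls of Cdkn2b and Gdf15 in WT wound-healing fibroblasts (adjusted p = 0.0192 and 0.0185) were each lost without WT MEF culture 1 (0.0524 and 0.0656) and without some other single cultures.

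The 2 Prrx1-loss models of MEF were compared directly as well, though they share their WT cultures in the comparisons above. Between them 5 of the 9 genes were called, 2 higher and 3 lower in sgPrrx1 MEF, with 56.2% of all genes called, 27.8% higher and 28.4% lower. Sesn2 was 1.85-fold higher in sgPrrx1 MEF (log2 0.89 ± 0.06, edgeR adjusted p = 4.48e-05) and Trp53 1.29-fold higher. Cdkn2b, Ccng1 and Gdf15 were lower (log2 -0.42 ± 0.06, -0.75 ± 0.16 and -0.72 ± 0.14). The call of Gdf15 was lost with all 9 MEF cultures in one model (adjusted p = 0.174, in a range from 0.000247 over the alternative settings).

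The interaction tests asked whether the change in edited cells differed between cell types. Between MMTV-CAF and wound-healing fibroblasts 8 of the 9 genes differed (66.5% of all genes), every gene but Gdf15. Between MMTV-CAF and MEF 7 differed (60.7%), Mdm2 and Gdf15 being the exceptions, and between wound-healing fibroblasts and MEF 3 differed (60.3%), namely Trp53, Mdm2 and Sesn2. The difference for Cdkn2c between MMTV-CAF and MEF (log2 0.85 ± 0.33, adjusted p = 0.0337) was lost in 9 of the 18 fits that left out 1 culture. Some misses turned on single cultures or settings: Mdm2 in MMTV-CAF against MEF was called without WT MEF culture 1 (log2 -0.51, adjusted p = 0.00242). Cdkn2a in wound-healing fibroblasts against MEF (log2 0.29 ± 0.12, adjusted p = 0.0525) was called under some alternative settings. There the adjusted p ranged from 0.0221 to 0.0605, with 0.0337 for DESeq2.

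The other CDK inhibitors were Cdkn1b (p27), Cdkn1c (p57) and Cdkn2d (p19Ink4d). In mutant MEF all 3 rose (log2 1.23 ± 0.30, 1.29 ± 0.11 and 0.44 ± 0.15, edgeR adjusted p = 0.0107, 9.08e-05 and 0.0416), and in sgPrrx1 MEF none was called. Cdkn1c was counted 124 to 135 times per culture in WT MMTV-CAF and 0 times in sgPrrx1 MMTV-CAF, at least 41.3-fold lower against a floor of 3 counts per library. There Cdkn2d rose like the Ink4 genes above (log2 0.56 ± 0.04, adjusted p = 1.79e-06), and so did Cdkn1b (log2 0.26 ± 0.04, adjusted p = 0.000213). In wound-healing fibroblasts Cdkn2d and Cdkn1b fell (log2 -0.40 ± 0.03 and -0.16 ± 0.03) and Cdkn1c rose (log2 0.56 ± 0.07).

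Of the locus neighbours, Mtap, beside Cdkn2a, fell in mutant MEF (log2 -0.55 ± 0.09, edgeR adjusted p = 0.00187) and rose in MMTV-CAF (log2 0.56 ± 0.02, adjusted p = 5.67e-08). In sgPrrx1 MEF Mtap rose (log2 0.24 ± 0.08, adjusted p = 0.0431), and in wound-healing fibroblasts it was not called (adjusted p = 0.0659). Wrap53, the partner of Trp53 on the opposite strand, was higher in all 4 Prrx1-loss groups, by log2 0.61 ± 0.09, 0.46 ± 0.08, 0.12 ± 0.03 and 0.13 ± 0.05 in the order mutant MEF, sgPrrx1 MEF, wound-healing fibroblasts and MMTV-CAF. Dmrta1, beyond Cdkn2b, stayed at or below 0.173 CPM in every culture. Of the comparisons with WT it was tested in MMTV-CAF alone, where it was called higher (0.123 against 0.0213 CPM, edgeR adjusted p = 0.00792), and its fitted log2 change of 2.40 ± 0.63 depends on the prior count at such levels.

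A list of 26 other p53 target genes was read beside Cdkn1a and Mdm2. In sgPrrx1 wound-healing fibroblasts 20 rose and 4 fell, with a median log2 change of 0.29 against 0.00443 over all genes tested, where 38.3% of all genes were higher and 39.3% lower. Perp rose most (log2 1.81 ± 0.04, edgeR adjusted p = 3.27e-09), and Gadd45a, a DNA damage gene, fell most (log2 -0.797 ± 0.04, edgeR adjusted p = 2.23e-07). Pidd1 and Pmaip1, both death genes, rose by log2 1.55 and 1.48; they were picked after their values were seen, as were Tnfrsf10b and Aen below. In sgPrrx1 MMTV-CAF 8 rose and 18 fell, with a median of -0.39 (all genes -0.00318, 41.2% higher and 41.9% lower). The death receptor gene Tnfrsf10b and Aen fell (log2 -1.18 and -0.60), whereas Fas rose most (log2 3.18 ± 0.02, edgeR adjusted p = 3.92e-11). Perp, a p53 target in cell adhesion, was counted 55 to 80 times in WT and 0 times in sgPrrx1 MMTV-CAF, at least 20.2-fold lower, and the list's median was -0.39 with Perp at that bound too.

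In MEF the list went in different directions in the 2 models. Mutant MEF had 13 higher and 2 lower (median 0.31, all genes 0.00944, 29.4% higher and 30.5% lower), and sgPrrx1 MEF 3 higher and 12 lower (median -0.27, all genes 0.00171, 20.3% higher and 22.8% lower). The 2 comparisons share their WT cultures. With 1 culture left out the sgPrrx1 count was 7 to 10 lower and 2 to 6 higher, the 6 being without WT culture 3 and the 7 without WT culture 2 or sgPrrx1 culture 2 or 3. Ddit4l, an mTOR inhibitor, separated the models most: 27.1 to 32.1 CPM in mutant MEF, 2.03 to 2.69 in WT and at most 0.0886 in sgPrrx1 MEF. Perp was higher than in WT in both (log2 2.91 and 2.996).

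Of 20 genes of the ATF4 stress response, which also drives Sesn2 and Gdf15, 16 fell and 3 rose in sgPrrx1 wound-healing fibroblasts, where Sesn2 rose, and the median log2 change was -0.48. Of all genes tested there, 39.3% fell and 38.3% rose, and the median over all genes lay between -0.00318 and 0.00944 in each of the 4 comparisons. Psat1, a serine synthesis enzyme, fell most (log2 -1.18 ± 0.01, edgeR adjusted p = 9.06e-11). In MMTV-CAF 11 fell and 6 rose (41.9% and 41.2% of all genes), Atf5 falling most (log2 -1.72) and Sesn3, another sestrin, rising most (log2 5.28). Mutant MEF had 6 higher and 8 lower (29.4% and 30.5% of all genes), with the receptor gene Vldlr lowest (log2 -4.42), and sgPrrx1 MEF 9 higher and 4 lower (20.3% and 22.8%). The MMTV-CAF and mutant MEF counts were not far from these shares and say nothing particular about the list.

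Proliferation genes were counted next. In sgPrrx1 MMTV-CAF 22 of 23 rose and 0 fell (median log2 0.57), where 41.2% of all genes rose and 41.9% fell, led by Top2a, the DNA topoisomerase (log2 1.68 ± 0.02, edgeR adjusted p = 3.16e-10). Their summed level was 5012 to 5104 CPM against 3037 to 3118 in WT. In sgPrrx1 wound-healing fibroblasts 16 fell and 4 rose (39.3% and 38.3% of all genes; median log2 -0.22), with the mitotic cyclin Ccnb1 lowest (log2 -0.70) and Mki67 highest (log2 0.63), and the sum was 4738 to 4823 CPM against 5396 to 5435. Mutant MEF had 10 higher and 2 lower (29.4% and 30.5% of all genes; median log2 0.22) and sgPrrx1 MEF 6 higher and 0 lower (20.3% and 22.8%; median 0.12), the latter 3 to 7 higher with 1 culture left out, with the 3 arising without WT culture 2.

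**Figure D4:**
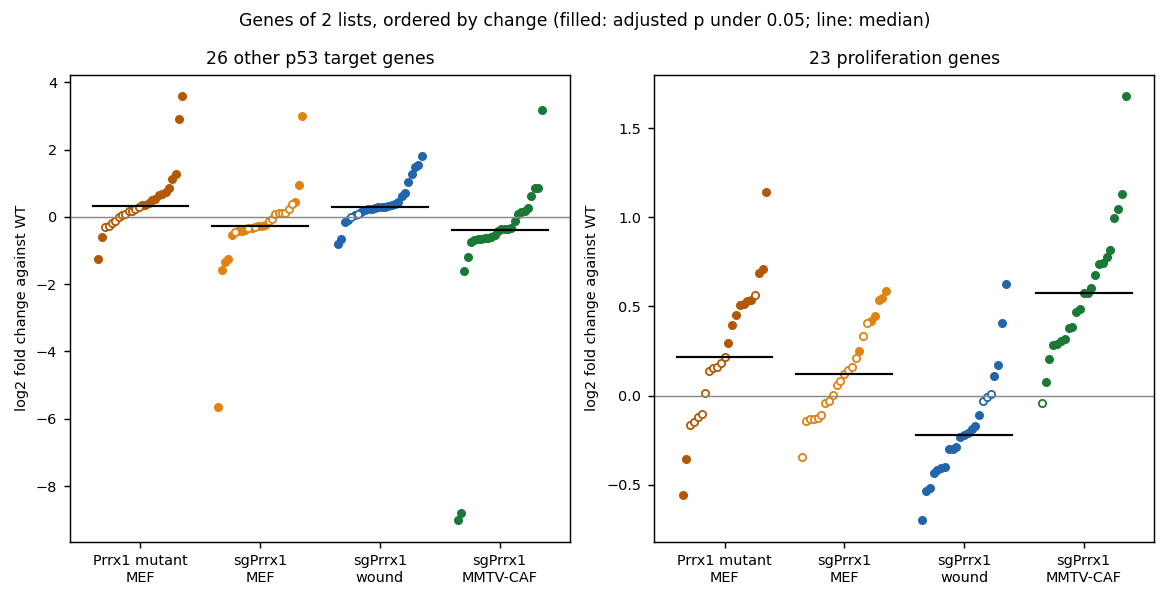
Log2 fold change of each of 26 other p53 target genes and 23 proliferation genes against WT, ordered within each comparison, with filled points for genes that passed the test and a line at the median; the 2 lowest MMTV-CAF points are Perp and Ddit4l, at or near 0 counts there, whose fitted place is no bound. In MMTV-CAF the p53 targets had a median of -0.39 and the proliferation genes 0.57, and in wound-healing fibroblasts 0.29 and -0.22.

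The cyclins, CDKs, Rb family and E2F genes showed the kinases that the Ink4 proteins bind. Cdk6 rose most in both sgPrrx1 wound-healing fibroblasts and MMTV-CAF (log2 0.84 ± 0.03 and 1.83 ± 0.02, edgeR adjusted p = 1.67e-08 and 1.99e-10). Of the 20 genes, 13 rose and 4 fell in MMTV-CAF, 10 and 7 in wound-healing fibroblasts, 7 and 1 in sgPrrx1 MEF, and 8 and 4 in mutant MEF. Of all genes the shares that rose and fell were 41.2% and 41.9%, 38.3% and 39.3%, 20.3% and 22.8%, and 29.4% and 30.5% in the same order, so the wound-healing count was not far from its background. Cyclin D1 (Ccnd1) fell most in mutant MEF (log2 -2.09 ± 0.09, adjusted p = 4.47e-06), from 675 to 162 CPM.

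Among 18 regulators and relatives of p53, 17 were tested, and 8 rose and 5 fell in MMTV-CAF, 6 and 7 in wound-healing fibroblasts, 4 and 4 in sgPrrx1 MEF, and 6 and 3 in mutant MEF. Read against the shares of all genes just given, these counts say nothing particular about the list. Trp63, the epithelial relative of Trp53, was the most variable, rising from 2.41 to 32.4 CPM in MMTV-CAF (log2 3.73 ± 0.05, edgeR adjusted p = 4.45e-10) and counted 0 times in all 3 sgPrrx1 MEF, at least 5.15-fold below WT. Of 17 regulators of the Ink4-Arf locus, 10 rose and 5 fell in both MMTV-CAF and wound-healing fibroblasts, 4 rose and 3 fell in sgPrrx1 MEF, and 4 rose and 5 fell in mutant MEF, and the MEF counts were likewise not far from the background. Id1, which restrains p16Ink4a, rose in wound-healing fibroblasts (log2 1.81 ± 0.03, adjusted p = 1.61e-10) and fell in sgPrrx1 MEF (log2 -0.89 ± 0.19, adjusted p = 0.0101). Tbx3, a repressor of Arf, rose most in MMTV-CAF (log2 2.68 ± 0.04, adjusted p = 4.66e-10), where Cdkn2a rose too. Tbx2 of the same list went the other way there and fell most (log2 -1.38 ± 0.34, edgeR adjusted p = 0.00558). It was scarce, at 0.384 CPM in WT and 0.147 in sgPrrx1 MMTV-CAF. In mutant MEF Tbx2 also fell most (log2 -2.81 ± 0.50).

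Over the 21 cultures, log2 CPM of other genes followed the 9 with Pearson correlations given only as a description, since the points are 7 groups of 3 on 1 scale. The 3 closest genes were Tmem185b, Wdr46 and Gemin5 for Trp53 (r = 0.965 for the first), Zfp955b, Abracl and Snord32a for Mdm2 (0.971), and Zfp57, Ube2d2a and Zbtb1 for Cdkn1a (0.942). They were Slc35a5, Creld1 and Slc9a7 for Ccng1 (0.985), Tulp4, Gab2 and Mfsd6 for Sesn2 (0.960), and 9530082P21Rik, Cmtr1 and Mmp11 for Gdf15 (0.939). For the Ink4 genes they were Sephs2, Trappc5 and Pold1 for Cdkn2a (0.963), Ptx3, Gstm4 and 2610008E11Rik for Cdkn2b (0.967), and Gm4925, Tmem205 and Pdlim4 for Cdkn2c (0.800), the loosest match of the 9.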

How the data were processed

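Per the labels, RNA libraries (TruSeq RNA Sample Preparation kit v2, which does not mark strand) were sequenced as paired ends on an Illumina HiSeq. The authors trimmed reads with Trimmomatic, aligned them to mm10 with STAR and deposited counts per gene from HTSeq in 3 tables, 1 per cell type. The cell type of the wound-healing table's columns, named only by genotype and number, was assigned by elimination. The study names ComBat-seq batch correction after a sentence on human cells without saying whether the murine tables were corrected; none was applied here. Columns of no sample numbered 0.

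Each comparison was fitted with edgeR 4.0.16 (R 4.3.3, limma 3.58.1; filterByExpr, TMM, glmQLFit, glmQLFTest) on the counts of its 2 groups, WT comparisons on the 3 WT groups and interactions on the WT and sgPrrx1 groups of all cell types, and p-values were adjusted by Benjamini-Hochberg over all genes tested with a threshold of 0.05. No exact permutation of 3 against 3 can go below p = 0.1, so none was used. Scripts were tested on simulated data. Alternatives were DESeq2 1.42.0, RLE and upper-quartile scaling, TMM over 21 cultures, no filter, at least 10 counts in every culture, a 2-fold minimum, a replicate block, all MEF in one model, and leaving out each culture. The deviations of log2 CPM from the group means correlated by -0.223 to 0.13 between same-numbered cultures of compared groups. No pairing by number was seen, though 3 cultures per group cannot exclude it. No 2 cultures held identical counts.

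The 9 genes and all lists were chosen with earlier results of these data known. Named were the 9 genes, Prrx1, every other CDK inhibitor and locus neighbour, and the 3 genes closest to each of the 9 by Pearson r of log2 CPM (prior count 2). Genes of the other lists were picked from the largest called rise and fall of each list in each comparison with WT. Not all of these are named, among them Kat5, Suz12 and Rbl1. Pidd1, Pmaip1, Tnfrsf10b, Aen and the cell type markers were named outside this rule, after their values were seen. Depth was 69588655 to 134790440 counts per culture.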

Additional observations from a re-analysis of the deposited data

Results flagged for a closer look

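The change with sgPrrx1 differed between cell types for these genes by the edgeR interaction test, adjusted over all genes. The values are differences of log2 fold changes. Wound-healing fibroblasts minus MEF gave -0.25 for Trp53, 1.05 for Mdm2 and 0.81 for Sesn2. MMTV-CAF minus MEF gave -0.71 for Trp53, -1.74 for Cdkn1a, 1.49 for Cdkn2a, 1.28 for Cdkn2b, 0.85 for Cdkn2c, -0.84 for Ccng1 and -1.01 for Sesn2. MMTV-CAF minus wound-healing fibroblasts gave -0.46 for Trp53, -2.33 for Cdkn1a, 1.2 for Cdkn2a, 1.2 for Cdkn2b, 1.06 for Cdkn2c, -1.37 for Mdm2, -0.95 for Ccng1 and -1.82 for Sesn2. Strain, culture line and cell type cannot be told apart in the differences that involve MMTV-CAF.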

How the results depend on the processing

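Of 1737 recomputed changes of the 9 genes, 1605 kept their direction and side of the threshold, 45 gained a call, 64 lost one (32 of them through the 2-fold minimum) and 23, none of them called, turned sign. With a change of at least 2-fold required, the 9 genes gave 1 call in mutant MEF, 0 in sgPrrx1 MEF, 1 in wound-healing fibroblasts, 4 in MMTV-CAF, 0 between the MEF models, 4 in WT wound-healing fibroblasts against WT MEF and 2 in WT MMTV-CAF against WT MEF, and all genes gave 3283, 1411, 2179, 3377, 2838, 5589 and 4908 calls in that order and 5380 in WT MMTV-CAF against WT wound-healing fibroblasts, by construction. With 1 culture left out, sgPrrx1 MEF gave 2 to 5 calls among the 9 genes and 3830 to 6340 among all. The interaction of wound-healing fibroblasts with MEF gave 3 to 5 among the 9 genes and 8554 to 9413 among all. Turned signs spanned, over left-out cultures, -0.53 to 0.19 for Cdkn1a and -0.57 to 0.21 for Gdf15 in mutant MEF, -0.50 to 0.045 for Cdkn2c in sgPrrx1 MEF, -0.21 to 0.34 for Cdkn2c and -0.14 to 0.18 for Mdm2 between the MEF models, -0.083 to 0.32 for Cdkn2c in WT wound-healing fibroblasts against WT MEF, -0.42 to 0.13 for the Cdkn2c interaction there, and -0.37 to 0.41 for the Gdf15 interaction of MMTV-CAF with MEF. That Gdf15 value was -0.0053 with DESeq2 and -0.0041 with RLE scaling. The replicate block, for numbers that showed no pairing, gave -0.11 there, 0.040 for Gdf15 in mutant MEF and 0.0038 for Mdm2 between the MEF models, and it changed 6 calls: Ccng1 in mutant MEF (adjusted p = 0.0548) and Cdkn2a in wound-healing fibroblasts (0.0732) were lost, and Cdkn2c in mutant MEF (0.0496), Ccng1 in sgPrrx1 MEF (0.038), Cdkn1a between the MEF models (0.0482) and the Cdkn2a interaction of wound-healing fibroblasts with MEF (0.0384) were gained. The cause of these shifts was not tested. Group levels of the 9 genes were recomputed with RLE scaling, upper-quartile scaling and library totals alone. Of these 189 values, 60 moved by at least the SD of their group. Cdkn1a in sgPrrx1 wound-healing fibroblasts, for instance, ranged from 548 to 588 CPM. Levels rested on at least 1547 counts for Cdkn2b, and Gdf15 was the scarcest of the 9 genes per kb, with a coefficient of variation of 58.3% in WT MEF.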
